A study of Mus musculus with 42 samples.

Results

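Liver transcripts after 21 days of high-fat diet (HFD) were set against those of control livers, using the 8 arrays labelled 21 days HFD and the 18 arrays labelled control, of 42 arrays in all. Both groups came from single-housed, random-fed, wild-type male C3HeB/FeJ mice, an inbred strain, and liver RNA was hybridised to Affymetrix whole-transcript arrays. The HFD mice were 17 weeks old, and the controls ate a low-fat diet (LFD) for at most 21 days and were 15 to 17 weeks old. The controls were thus pooled over age and days of feeding, and age could not be fitted. The other 16 arrays, 8 each after 7 days (15 weeks old) and 14 days (16 weeks old) of HFD, served to set the spread and to compare the HFD times. Arrays are numbered within a group, and no label ties a number to a mouse. The p-values therefore rest on the spread among samples, some of which may be technical. Values are log2 RMA signals, in which a difference of 1 is a 2-fold change, and 17989 genes were tested. A gene is called, or said to rise or fall, where limma's Benjamini-Hochberg adjusted p over all these genes was under 0.05.

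A fat-rich diet floods the liver with fatty acids. Many of them bind the nuclear receptor PPAR-alpha, which switches on genes for their uptake, for their breakdown in mitochondria and peroxisomes, and for omega-hydroxylation by the Cyp4a enzymes in the endoplasmic reticulum. The liver also takes apart amino acids, conjugates foreign compounds for excretion, turns cholesterol into bile acids and secretes complement and other plasma proteins. In rodents, many genes of these secretory and detoxifying tasks differ between the sexes under the control of growth hormone.

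The 8 arrays at 21 days were not uniform. Malat1, an abundant nuclear RNA, had log2 values of 6.20 to 7.41 on the arrays numbered 1 to 4 and 9.15 to 9.57 on those numbered 5 to 8, against 5.49 to 9.54 in controls. These 2 subsets did not overlap, and controls spanned nearly the whole range. Arrays 6 and 3 lay farthest from the group mean (SD of the log2 difference over genes 0.43 and 0.37, against 0.26 to 0.33 on the other 6). The mean log2 value of 18 pancreatic acinar markers, digestive enzymes that mark tissue of the exocrine pancreas, ran from 3.26 to 5.83 at 21 days (median 3.97) and from 3.34 to 7.72 in controls (4.19). Of the 10 measured hepatocyte markers 0 were called, but 9 had a change below 0 (median -0.14), 4 had an unadjusted p under 0.05 and 3 were called lower with arrays 1 to 4 alone. Their mean ran from 11.39 to 12.02 at 21 days and from 11.62 to 12.10 in controls. Lists of marker genes for Kupffer cells, lymphocytes and neutrophils, stellate cells, endothelium, bile duct, acinar tissue, red cells and fat cells also had 0 called members. Over all genes 0.700% were called, so 0 in such short lists is near that share. In bulk liver, fewer cells of a type and less RNA per cell cannot be told apart. With the Malat1 level as a covariate 156 genes were called at 21 days (92 higher, 64 lower). With the acinar marker mean as a covariate 121 were called (75 higher, 46 lower), and without a covariate 126. Beyond these fits and the values given beside the results, the part of these array differences was not tested.

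At 21 days of HFD 80 genes rose and 46 fell, which were 0.445% and 0.256% of the genes tested. Together the 126 called genes were 0.700% of all, and 1198 genes had an unadjusted p under 0.05 where 899 would be met by chance alone. The rises were larger: 15 rises and 6 falls reached 2-fold, and 7 rises and 0 falls reached 4-fold. All 8 arrays lay above every control for 9 genes (0.05% of all genes) and below every control for 3 (0.0167%). For 64 of the rises and 39 of the falls, all 8 arrays lay on 1 side of the control mean. The median change over all genes was 0.01.

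Cyp4a14, Cyp4a10 and Cyp4a31, whose products hydroxylate the far end of fatty acids, separated the groups fully. Cyp4a14 had a lowest, median and highest log2 value of 5.36, 6.84 and 7.30 at 21 days, against 2.61, 2.98 and 3.73 in controls. Every HFD array was above every control, and the change was 3.53 (SE 0.26, 11.6-fold, limma adjusted p = 2.59e-13). Cyp4a10 had values of 5.88, 6.68 and 6.97 at 21 days, against 3.78, 4.29 and 4.77 in controls (change 2.25, SE 0.17, 4.75-fold). Cyp4a31 had values of 6.29, 6.59 and 7.08 at 21 days, against 2.95, 4.15 and 5.17 in controls (change 2.52, SE 0.22, 5.73-fold). Neither gene's groups overlapped. Probe sets of these near-identical genes can bind each other's transcripts, so the 3 may not be separate observations.

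Vnn1, a pantetheinase that frees a precursor of coenzyme A, separated as sharply. Its values were 5.0, 6.33 and 6.64 at 21 days, against 2.96, 3.23 and 3.60 in controls (change 2.83, SE 0.15, 7.13-fold, limma adjusted p = 7.76e-18). The groups did not overlap. Its paralogue Vnn3 had values of 5.48, 6.50 and 6.87 at 21 days, against 4.28, 5.34 and 5.85 in controls (change 1.22, SE 0.17), and 7 of the 8 HFD arrays were above every control. Aldh3a2, which oxidises fatty aldehydes, had values of 8.92, 9.16 and 9.62 at 21 days, against 7.38, 7.99 and 8.61 in controls, again without overlap (change 1.18, SE 0.12).

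**Figure D1:**
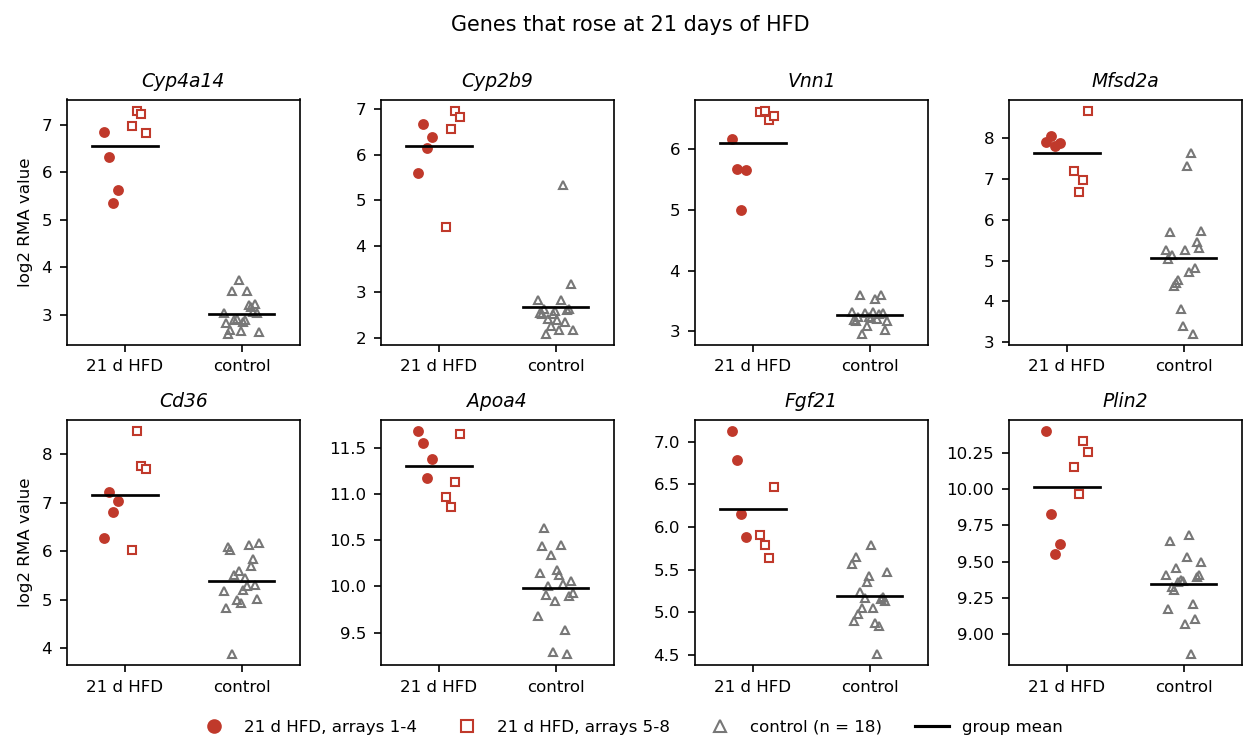
Log2 RMA values of 8 genes that rose at 21 days of HFD, each panel with its own scale; each point is an array (filled circles 21-day arrays 1 to 4, open squares 21-day arrays 5 to 8, triangles the 18 controls) and lines are group means. The groups do not overlap for Cyp4a14, Vnn1 and Apoa4, while 1 control at 5.33 stands inside the 21-day range of Cyp2b9 and 2 controls stand inside that of Mfsd2a.

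Genes that bring fatty acids into the cell and store them rose as well. Cd36, a fatty acid translocase of the plasma membrane, had values of 6.01, 7.13 and 8.47 at 21 days, against 3.89, 5.37 and 6.18 in controls (change 1.76, SE 0.30, 3.39-fold, limma adjusted p = 0.00026). The ranges overlap at 1 HFD array, with 7 of 8 HFD arrays above every control. Plin2, which coats lipid droplets, had values of 9.55, 10.06 and 10.40 at 21 days, against 8.86, 9.37 and 9.68 in controls, and 6 of the 8 arrays were above every control (change 0.67, SE 0.09). Fabp2, the intestinal-type fatty acid binding protein, had a change of 1.02. G0s2, an inhibitor of triglyceride lipase, had a change of 0.94, that of Mgll, monoacylglycerol lipase, was 0.80 and that of Fitm1, which helps droplets form, 0.76. Of 27 measured genes of lipid droplets and uptake these 6 rose and 1 fell, Lpl, with a median change of 0.10. The droplet genes Cidea (change 0.05, limma adjusted p = 0.989) and Cidec (0.06, 0.994) were not called.

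Mfsd2a and Rgs16 had large changes over a wide control range. Mfsd2a, a transporter of lysophosphatidylcholine, had values of 6.68, 7.85 and 8.68 at 21 days, against 3.21, 5.09 and 7.64 in controls (change 2.58, SE 0.36, 5.98-fold). Only 5 of the 8 HFD arrays were above every control, since 2 controls were high. Rgs16, a brake on G-protein signalling, had values of 6.15, 7.55 and 8.46 at 21 days, against 3.70, 4.81 and 7.60 in controls (change 2.24, SE 0.38). Here 4 HFD arrays were above every control and 15 controls were below every HFD array.

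Rises among secreted proteins included Apoa4, Fgf21 and Serpina7. Apoa4, a component of triglyceride-rich lipoproteins, had values of 10.86, 11.28 and 11.69 at 21 days, against 9.27, 10.02 and 10.64 in controls, with no overlap (change 1.32, SE 0.14, 2.49-fold, limma adjusted p = 4.44e-09). Fgf21, a hormone released by the liver in fasting and nutrient stress, had values of 5.64, 6.03 and 7.13 at 21 days, against 4.51, 5.16 and 5.79 in controls (change 1.03, SE 0.16, limma adjusted p = 5.74e-05). For Fgf21, 6 of the 8 HFD arrays were above every control. Serpina7, the thyroxine-binding globulin, had values of 6.05, 6.79 and 7.85 at 21 days, against 4.59, 5.61 and 6.40 in controls (change 1.23, SE 0.19). Among 13 lipoprotein genes Apoa4 rose and 1 fell, Apom, which carries sphingosine 1-phosphate on high-density lipoprotein (change -0.51), with a list median of -0.03.

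PPAR-alpha targets held more rises than any other list. Of 25 measured PPAR-alpha target genes 16 rose and 0 fell, with a median change of 0.61 against 0.01 over all genes. Beside Cyp4a14, Cyp4a10, Cyp4a31, Vnn1, Fgf21, Plin2 and Mgll they were Acot1 to Acot4, Acaa1b, Angptl4, Pex11a, Retsat and Slc25a20. The acyl-CoA thioesterases, which free fatty acids from coenzyme A, had changes of 0.61 for Acot1, 0.74 for Acot2, 0.76 for Acot3 and 0.72 for Acot4, and their sequences are alike enough for probe sets to cross-react. The 9 members that were not called had changes from -0.14 for Aqp7 to 0.47 for Ehhadh, the peroxisomal bifunctional enzyme (limma adjusted p = 0.0738).

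In peroxisomes, which shorten very long fatty acids, 7 of 14 measured oxidation genes rose and 0 fell (median 0.39). Abcd2, a transporter of very long acyl chains, led them with values of 5.69, 6.53 and 7.13 at 21 days, against 4.14, 4.71 and 5.92 in controls (change 1.63, SE 0.21, limma adjusted p = 8.95e-07), and 7 of its 8 HFD arrays were above every control. The thiolase gene Acaa1b had a change of 0.71, the dienoyl-CoA reductase gene Decr2 of 0.60, the isomerase gene Eci2 of 0.56, Pex11a, which promotes peroxisome division, of 0.55, Acot8 of 0.41 and the transporter gene Abcd3 of 0.38. Pex11a and Acot8 had all 8 HFD arrays above every control. With arrays 1 to 4 alone 4 genes of this list were higher and 1 lower (median 0.37). With arrays 5 to 8 alone 7 were higher and 0 lower (median 0.50). Abcd3 had a change of 0.13 in arrays 1 to 4 and 0.62 in arrays 5 to 8, and lost its call in 4 of the fits that left out 1 array.

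In mitochondria 6 of 19 oxidation genes rose and 0 fell (median 0.28). These were Crat, carnitine acetyltransferase (change 0.88), Decr1 (0.52), the carnitine-acylcarnitine carrier Slc25a20 (0.49), Eci1 (0.45), Hadh (0.42) and Hadhb of the trifunctional protein (0.36). Of the 5 ketone body genes measured, 2 rose, Bdh1 (0.53) and Acat1 (0.37). The arrays with high Malat1, 5 to 8, gave 7 rises in the oxidation list (median 0.44), against 3 in arrays 1 to 4 (median 0.18). Eci1 had a change of 0.71 in arrays 5 to 8 and 0.18 in arrays 1 to 4, and Decr1 of 0.75 in arrays 5 to 8 and 0.30 in arrays 1 to 4. Hadhb had 0.59 in arrays 5 to 8 and 0.13 in arrays 1 to 4, and Acat1 had 0.60 in arrays 5 to 8 and 0.13 in arrays 1 to 4. The carrier list held 1 further rise, Slc25a47, a liver-specific inner-membrane carrier (0.67). No respiratory chain gene was called, beside 0.700% of all genes: 0 of 32 for complex I and 0 of 35 for complexes II to IV and ATP synthase. Their medians were -0.06 and -0.01, and 0 of each had an unadjusted p under 0.05.

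Enzymes that lengthen and desaturate fatty acids rose in 3 of 15 and fell in 0 (median 0.11). Fads2, the delta-6 desaturase, had a change of 0.85, Elovl5 of 0.68 and Elovl2 of 0.47, and the first 2 kept their calls without any single array. Genes of fatty acid synthesis from acetyl-CoA were called in 0 of 15 at 21 days (median 0.26; 5 had an unadjusted p under 0.05). Fasn, fatty acid synthase, had values of 8.34, 9.13 and 10.16 at 21 days, against 6.59, 8.62 and 9.69 in controls, which overlap over most of their range (change 0.80, SE 0.31, limma adjusted p = 0.49). Pklr, liver pyruvate kinase, had a change of 0.43 (0.592), Srebf1, which encodes the lipogenic factor SREBP-1, of 0.26 (0.965), and Scd1, the delta-9 desaturase, of -0.05 (0.995), each with its limma adjusted p in parentheses. The limits on these changes were wide, and they do not show that the levels were equal.

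**Figure D2:**
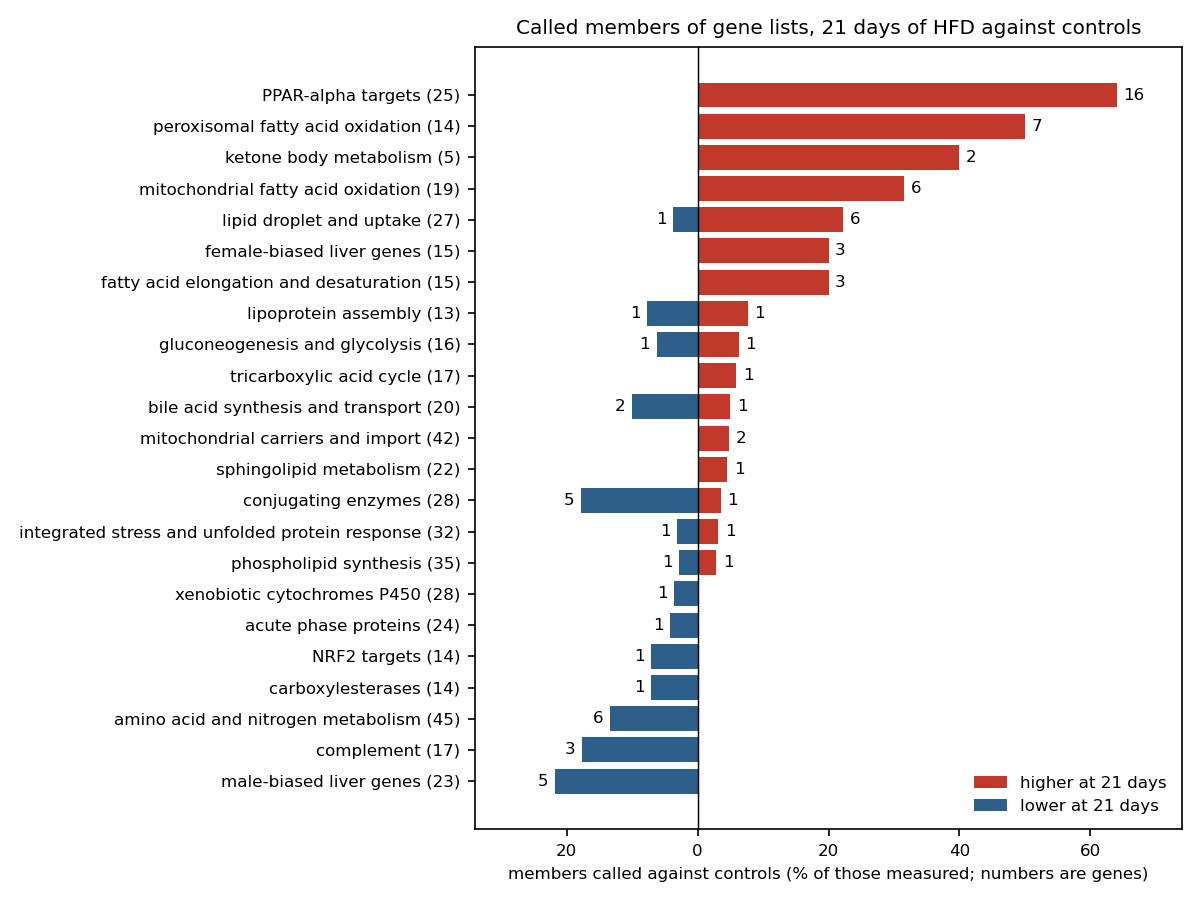
Share of the measured members of each gene list that was called at 21 days of HFD against controls (horizontal axis, in percent; red to the right for higher, blue to the left for lower; numbers at bar ends are genes and numbers in parentheses are measured members). Lists with 0 called members are left out. PPAR-alpha targets have 16 higher of 25, and the bars of male-biased genes, complement, amino acid metabolism and conjugating enzymes lie mostly or wholly to the left. Lists share genes, so the bars are not separate groups. The male-biased falls C8b and C6 are also in the complement bar, Gstp1 in that of conjugating enzymes and Cyp7b1 in that of bile acid synthesis.

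One female-biased P450 stood out by size. Cyp2b9 had values of 4.42, 6.47 and 6.96 at 21 days, against 2.10, 2.53 and 5.33 in controls (change 3.52, SE 0.37, 11.5-fold, limma adjusted p = 7.17e-09). Control 13 was the high one, and the other 17 controls lay below every HFD array. The control mean of 2.67 was under 2.86, the 95th percentile of 929 olfactory receptor genes that served as a background level, so the control side of this fold is a background signal. Of 15 measured female-biased genes 3 rose, Cyp2b9, Abcd2 and Acot3, and 0 fell (median 0.05). Abcd2 was also counted above as a peroxisomal oxidation gene and Acot3 as a PPAR-alpha target. Of the 15 genes 8 lay under the background level in controls and 7 at 21 days, where a fall can hardly be seen. Of 23 male-biased genes 0 rose and 5 fell, with a median change of -0.46 against 0.01 over all genes, and 15 had an unadjusted p under 0.05. This list differed between the 21-day subsets. With arrays 1 to 4 alone 13 members were lower and 1 higher (median -0.55). With arrays 5 to 8 alone 2 were lower and 1 higher (median -0.23).

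The male-biased genes that fell were Egfr, Cyp7b1, Gstp1, C8b and C6. All but Egfr are counted again below, Cyp7b1 in bile acid synthesis, Gstp1 among conjugating enzymes, and C8b and C6 in complement. Egfr, the epidermal growth factor receptor, had values of 7.03, 7.74 and 8.52 at 21 days, against 8.07, 8.72 and 9.64 in controls (change -0.97, SE 0.22, limma adjusted p = 0.0169), and lost its call without 21-day array 3 or 6 (adjusted p up to 0.0765). Cyp7b1, an oxysterol hydroxylase, had values of 9.36, 9.85 and 10.27 at 21 days, against 10.16, 10.71 and 11.28 in controls (change -0.82, SE 0.17), with 7 of 8 HFD arrays below every control. Members not called included the steroid dehydrogenase Hsd3b5 (-0.65, limma adjusted p = 0.0700), Cyp4a12a (-0.46, 0.0817), Elovl3 (-0.52, 0.629) and the transporter Slco1a1 (-0.12, 0.987). Without 21-day arrays 3 and 6, a fit added after the data were seen, the number of male-biased genes that fell was 3.

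Genes of amino acid and nitrogen metabolism fell in 6 of 45 and rose in 0, with a median of -0.12. Acmsd, a decarboxylase that keeps tryptophan metabolites from being used for NAD, had values of 4.42, 4.74 and 4.93 at 21 days, against 4.94, 5.97 and 6.59 in controls (change -1.22, SE 0.12, 2.33-fold lower, limma adjusted p = 4.44e-09). Its groups did not overlap, although the lowest control came within 0.01 of the highest HFD array. Csad, which makes hypotaurine for taurine, had values of 5.47, 6.06 and 6.67 at 21 days, against 6.09, 6.82 and 8.04 in controls (change -0.90, SE 0.18). Ddc, aromatic amino acid decarboxylase, had a change of -0.72, Asns, asparagine synthetase, of -0.65, the urea cycle enzyme Arg1 of -0.34 and the glycine methyltransferase Gnmt of -0.29. Without 21-day arrays 3 and 6 the list had 2 falls and 1 rise, and Ddc, Asns, Arg1 and Gnmt lost their calls (limma adjusted p 0.0527, 0.0983, 0.0615 and 0.218). With arrays 1 to 4 alone 15 members were lower, and with arrays 5 to 8 alone 4. The urea cycle genes Cps1 (-0.46, limma adjusted p = 0.0869) and Otc (-0.21, 0.861) were not called.

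Etnppl, a phospho-lyase that degrades phosphoethanolamine, had the fall with the smallest adjusted p. Its values were 6.71, 7.68 and 8.26 at 21 days, against 8.59, 9.13 and 9.50 in controls, with no overlap (change -1.52, SE 0.15, 2.87-fold lower, limma adjusted p = 3.91e-09). The fall was larger in arrays 1 to 4 (-2.05) than in arrays 5 to 8 (-1.0), and these 2 subsets did not overlap. Among 35 phospholipid genes it was the single fall and Mfsd2a the single rise.

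Bile acid synthesis had 2 falls among 20 genes, Cyp7a1 and Cyp7b1, and 1 rise, Slc10a2, an ileal-type bile acid transporter (change 0.77). Cyp7a1, the rate-limiting enzyme that hydroxylates cholesterol, had values of 6.62, 7.49 and 8.92 at 21 days, against 7.27, 9.24 and 10.39 in controls (change -1.42, SE 0.30, limma adjusted p = 0.00582). The ranges overlap: 4 HFD arrays were below every control, and 11 controls were above every HFD array. Its call held without any single array (largest adjusted p 0.0276). The list differed between the subsets, with 6 lower and 0 higher in arrays 1 to 4 (median -0.25) and 0 lower and 2 higher in arrays 5 to 8 (median 0.05). Without arrays 3 and 6, Cyp7b1 lost its call (limma adjusted p = 0.0680) and 1 fall was left. Cyp8b1, which sets the 12-hydroxylated share of bile acids, had a change of 0.09 (0.995).

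Conjugating enzymes fell in 5 of 28 and rose in 1, Ugt3a1 (change 0.82), with a median of -0.20. Glutathione S-transferases, which attach glutathione to reactive compounds, made up all 5 falls: Gstm3 (-0.80), Gstp1 (-0.76), Gsta4 (-0.59), Gstm2 (-0.59) and Gstm6 (-0.59). Gstp1 had values of 10.44, 11.36 and 11.71 at 21 days, against 11.36, 12.08 and 12.47 in controls (SE 0.15, limma adjusted p = 0.00195), and 15 controls were above every HFD array. The Gstm genes are close paralogues whose probe sets may cross-react. Gstm1 (-0.52, limma adjusted p = 0.217) and Gstm4 (-0.31, 0.541) were not called. Ugdh, which makes the UDP-glucuronate used in glucuronidation, had a change of -0.66.

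C8b, C6 and C9, components of the membrane attack complex, fell. C8b had values of 9.21, 9.55 and 10.09 at 21 days, against 10.11, 10.33 and 10.83 in controls, without overlap (change -0.75, SE 0.10, limma adjusted p = 7.21e-06). C6 had values of 5.94, 6.80 and 7.31 at 21 days, against 6.82, 7.64 and 7.91 in controls (change -0.75, SE 0.16). C9 had a change of -0.61, with -0.93 in arrays 1 to 4 and -0.29 in arrays 5 to 8. It lost its call in each fit without 21-day array 1, 2, 3 or 4. C8b, C6 and C9 were 3 of 17 complement genes (median -0.11), and 2 falls were left without arrays 3 and 6. With arrays 1 to 4 alone 5 complement genes were lower (median -0.19), and with arrays 5 to 8 alone 1 (median 0.07). Of the other genes of this complex on the list, Hc, which encodes C5 in the mouse (-0.29, limma adjusted p = 0.791), C8a (-0.33, 0.618) and C8g (0.02, 0.995) were not called. The early components C2 (-0.34, limma adjusted p = 0.484) and C4b (0.14, 0.983) were not called. Among 24 acute phase genes 1 fell, Orm1 (-0.56), and 0 rose. Hamp, which encodes the iron hormone hepcidin, stood just outside the threshold (-0.84, adjusted p = 0.0529), as did Cyp2c38 (0.98, 0.0529), while Elovl2 and Mpv17l stood just inside (0.0498 each).

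**Figure D3:**
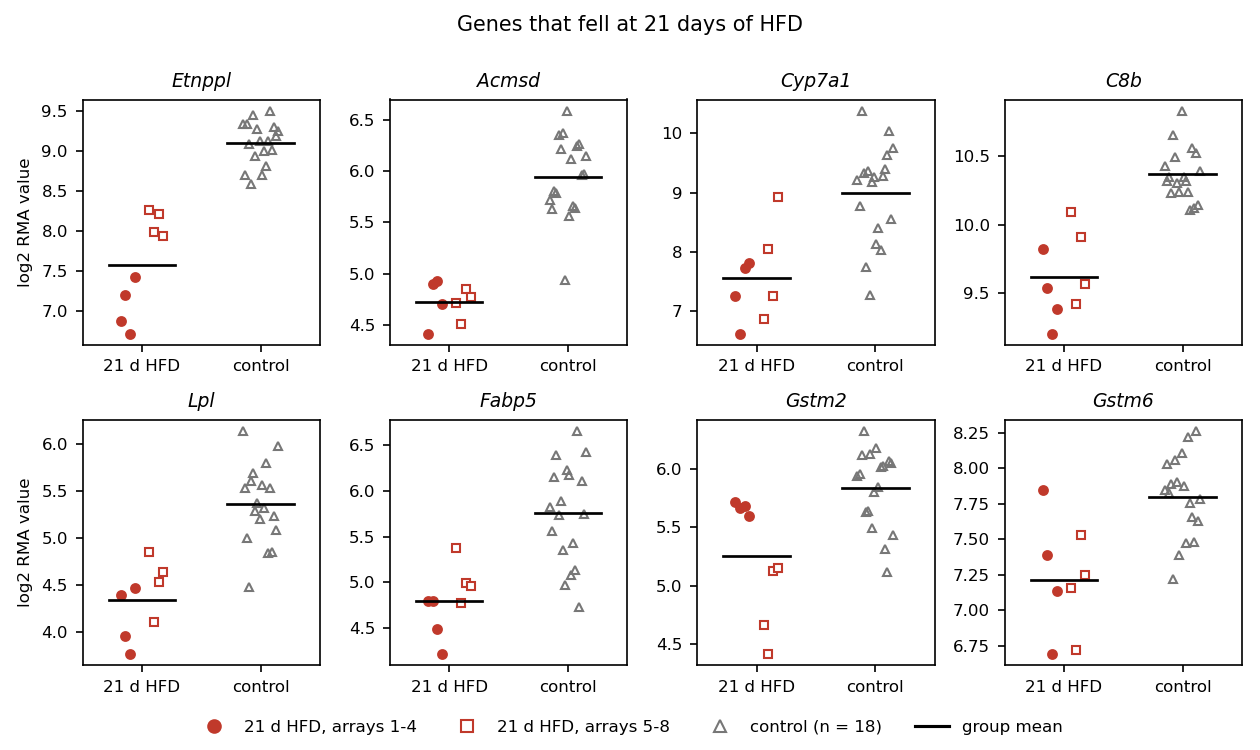
Log2 RMA values of 8 genes that fell at 21 days of HFD, each panel with its own scale; each point is an array (filled circles 21-day arrays 1 to 4, open squares 21-day arrays 5 to 8, triangles the 18 controls) and lines are group means. Etnppl, Acmsd and C8b have every 21-day array below every control, and for Gstm2 the arrays 5 to 8 (4.42 to 5.15) lie below the arrays 1 to 4 (5.60 to 5.72).

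Falls made up 36.51% of the calls at 21 days, with 17.13% of 251 calls at 7 days (1.40% of genes called, 1.16% higher and 0.239% lower) and 24.17% of 120 calls at 14 days (0.667%, 0.506% and 0.161%). The 3 comparisons use the same 18 controls, and the difference between these shares was not tested. Of the 126 genes called at 21 days, 81 were also called at both 7 and 14 days, 16 at 7 days, 4 at 14 days, and 25 at neither (0.139% of genes). The 25 were 16 falls (0.0889% of genes) and 9 rises (0.05%), which is 34.78% of the falls and 11.25% of the rises. They were chosen by the calls themselves, so their 21-day changes are a description. The balance moved with the scaling of the arrays: after quantile normalization 17 of 35 such genes were falls, and after centring each array on its median 20 of 23. The share of falls moved with the 21-day arrays that were kept. Without 21-day arrays 3 and 6, 105 genes rose (0.584%) and 26 fell (0.145%). In that fit 7 of 23 genes called at 21 days alone were falls. Of the 46 falls 25 kept their call then, against 73 of the 80 rises. The fit without arrays 3 and 6 was added after the data were seen. Without array 3 alone 31 genes fell (24.6% of the calls), and the falls called at 21 days alone numbered 9, or 10 without control 4. Leaving out array 6 alone gave 42 falls (36.21% of the calls), 15 of them called at 21 days alone. Falls were 41.96% of the calls without array 7 and 41.12% without array 8.

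Lpl, lipoprotein lipase, had the largest fall among these 25. Its values were 3.77, 4.43 and 4.85 at 21 days, against 4.48, 5.35 and 6.14 in controls, and 5 HFD arrays were below every control (change -1.02, SE 0.17, limma adjusted p = 0.000119). Its changes at 7 and 14 days, against the same controls, were -0.55 (limma adjusted p = 0.0964) and -0.53 (0.219). Fabp5, the epidermal fatty acid binding protein, had values of 4.22, 4.80 and 5.38 at 21 days, against 4.73, 5.78 and 6.66 in controls (change -0.96), beside -0.33 at 7 days and -0.51 at 14 days. Both genes kept their 21-day call without any single array and without arrays 3 and 6.

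The falls called at 21 days alone included 3 glutathione S-transferases. Gstm3 had changes of -0.27 at 7 days, -0.50 at 14 days and -0.80 at 21 days. Gstm2 had -0.15, -0.25 and -0.59, and Gstm6 had -0.23, -0.32 and -0.59, at the same times. Without arrays 3 and 6 all 3 lost their call, with changes of -0.56 for Gstm3, -0.52 for Gstm2 and -0.42 for Gstm6 (limma adjusted p 0.341, 0.114 and 0.0710). Gstm2 differed between the subsets, at -0.17 in arrays 1 to 4 and -1.0 in arrays 5 to 8. C6 had changes of -0.18, -0.33 and -0.75, and Asns of -0.40, -0.55 and -0.65. Cyp2c68, a P450, reached -0.70, Car14, a membrane carbonic anhydrase, -0.72, Cdh1, E-cadherin, -0.66, Dhrs9, a retinol dehydrogenase, -0.58, Gm2a, the GM2 ganglioside activator, -0.58 and Apom -0.51. Mpv17l, the laminin chain Lama3 (-0.32) and the glycolytic enzyme Tpi1 (-0.29) completed the 16.

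The 9 rises called at 21 days alone were small. Lmbr1l had values of 4.36, 4.51 and 4.65 at 21 days, against 3.59, 4.0 and 4.73 in controls (change 0.45), with 0.04 at 7 days and 0.11 at 14 days. Acot8, a peroxisomal thioesterase, had a change of 0.41, the transporter Slc6a16 of 0.40, the folate carrier Slc19a1 of 0.39, the adenylyl cyclase Adcy6 of 0.37 and Sec22c, of vesicle traffic, of 0.36. Cutc, Tpd52 and the predicted gene Gm9936 had changes of 0.28 to 0.34.

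**Figure D4:**
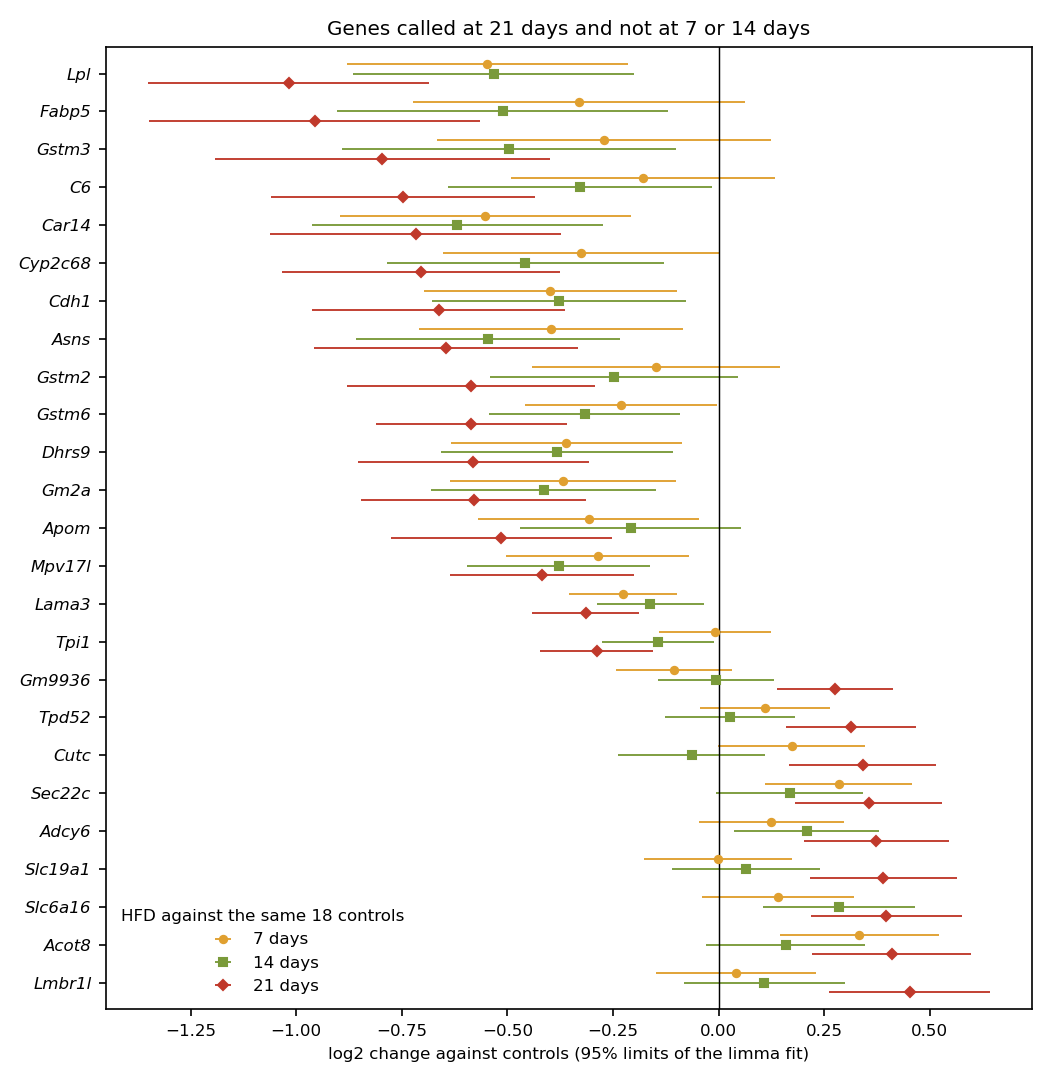
Log2 change against the same 18 controls at 7 days (circles), 14 days (squares) and 21 days (diamonds) for the 25 genes called at 21 days and not at 7 or 14 days, with bars for 95% limits of the limma fit. The 16 falls have changes below 0 at all 3 times and are farthest from 0 at 21 days, which their choice by the calls nearly ensures.

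With all 8 arrays, a direct test found no gene that set 21 days apart from the earlier times. The size of this difference uses no control array, but its spread, and so its p-values, came from the fit of all arrays, controls included. Against the mean of 7 and 14 days limma called 0 of 17989 genes (0%). The smallest adjusted p was 0.3601, and 1208 genes had an unadjusted p under 0.05. With only the arrays numbered 1 to 4 of every HFD time the same test called 7 genes, with those numbered 5 to 8 of every HFD time 0, and with the split between these numbers as a block 0. Setting 21-day arrays 1 to 4 against all arrays of the earlier times called 1232 genes (6.85%), and setting 21-day arrays 5 to 8 against them called 23 (0.128%), but there the numbers are not balanced between the times. Of the 25 genes 14 had such an unadjusted p, a count their choice favours. Lpl differed from the mean of the earlier times by -0.48 (95% limits -0.82 to -0.14, limma adjusted p = 0.656), and C6 by -0.49 (-0.81 to -0.17, 0.628). All 25 genes were farthest from 0 at 21 days, which their choice by the calls nearly ensures. Of them 22, among them all 16 falls, had the same sign at all 3 times, which the shared controls favour. The 25 are therefore genes that passed a threshold at 21 days and are not shown to change at 21 days alone. The titles of the 21-day and control arrays carry the word reanalysis and those of the 7-day and 14-day arrays do not, so any batch marked by this word and the time on diet cannot be told apart in this test. In the comparison with controls both groups carry the word.

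Between single times, 1 gene was called. Lcn2, lipocalin 2, an iron-binding acute phase protein, had values of 4.10, 4.40 and 5.08 at 21 days, against 4.66, 5.24 and 5.54 at 7 days (change -0.77, SE 0.14, limma adjusted p = 0.0284, 0.00556% of genes). The ranges overlap in part. Its controls had 3.64, 4.09 and 4.42, and at 21 days Lcn2 was not called against them (change 0.34, adjusted p = 0.341). For 21 against 14 days 0 genes were called by limma, and 715 had an unadjusted p under 0.05.

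The stress response list held 1 rise and 1 fall, both counted above in other lists. Fgf21 and Asns, both known targets of the transcription factor ATF4 in the amino acid response, were the only called genes among 32 measured (median -0.03), and they had opposite signs. The promoters are shown because both genes hold an ATF4-type element, the letters TGATG followed by any base and AA, within 250 bases before the start of the gene. Capitals mark the match. In Asns it is on the gene's strand 23 bases before the start, and in Fgf21 it is read on the opposite strand, starting 139 bases before.

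Asns: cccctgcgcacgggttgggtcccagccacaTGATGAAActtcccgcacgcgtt
Fgf21: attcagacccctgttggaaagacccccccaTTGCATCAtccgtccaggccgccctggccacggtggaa

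Both windows are from RefSeq promoters of build GRCm38.p6 on the minus strand, Asns at chr6:7693210-7693262 and Fgf21 at chr7:45615592-45615659. Of 32851 promoter windows of 300 bases (250 before to 50 after the start), 1304 or 3.969% hold this element on either strand. Counted by gene, 507 of the 14084 tested genes with a promoter (3.6%) hold it. Among stress list members with a promoter 6 of 28 hold it, and among genes called at 21 days 3 of 93. The other members with a match were Atf3 (change -0.06), Chac1 (0.04), Herpud1 (0.13) and Trib3 (0.16), none of them called. A match is a description of letters and not a bound site. Hspa5, a chaperone of the endoplasmic reticulum, had a change of 0.00 (adjusted p = 0.999).

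Promoters of the PPAR-alpha targets were searched on both strands for a direct repeat of the kind PPAR-alpha binds, the letters AGGNCA (N for any base) given 2 times with 1 base between. It stood in 125 of the 32851 windows (0.381%), in 1 of the 20 measured targets with a promoter and in 0 of the 11 called among them. The first count is of windows and the others are of genes. The 1 match was in Fabp1, the liver fatty acid binding protein, read on the opposite strand 67 bases before the start, and is printed with its letters in capitals (RefSeq, GRCm38.p6, chr6:71199782-71199854, plus strand).

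Fabp1: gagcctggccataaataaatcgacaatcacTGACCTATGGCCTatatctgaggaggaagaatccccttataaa

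Fabp1 had a change of 0.24 at 21 days (limma adjusted p = 0.572) and was not called.

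Other central groups had few calls, but over all genes only 0.700% were called. In lists of this size 0 called members are near that share and tell little about the groups. Insulin signalling had 0 of 23 called (median 0.02; 2 with an unadjusted p under 0.05), with Irs2, insulin receptor substrate 2, at 0.02 (limma adjusted p = 0.996) and Igfbp1 at 0.25 (0.94). The gluconeogenic genes Pck1 (0.06, 0.995) and G6pc (0.14, 0.994) were not called. In glycolysis and gluconeogenesis Ldha rose (0.39) and Tpi1 fell. The clock list had 0 of 16 called (median 0.05; 3 with an unadjusted p under 0.05), the interferon list 0 of 24 and the cell cycle list 0 of 24. Ppara itself had a change of 0.34 (adjusted p = 0.53) and Pparg of -0.07 (0.972).

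Arrays 1 to 4 and 5 to 8 of the 21-day group were then fitted apart, a split chosen from the array numbers after earlier results of these data were known. With arrays 1 to 4, 877 genes were called (4.88%), 393 higher (2.18%) and 484 lower (2.69%) than in controls. With arrays 5 to 8, 388 were called (2.16%), 240 higher (1.33%) and 148 lower (0.823%). Of 73 genes called in both subsets, 25 had opposite signs. None of these was among the 126, as a call on all 8 arrays together disfavours opposite signs. A list of 26 splicing and nuclear RNA genes had a median change of -0.60 in arrays 1 to 4 and 0.44 in arrays 5 to 8, and 0 called members with all 8.

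All 126 genes kept their sign in both subsets. They were called on the mean of these same 8 arrays, which favours such agreement, so it is a description. With 4 arrays alone, 84 of them were called in arrays 1 to 4, 86 in arrays 5 to 8, 48 in both and 4 in neither. The 48 were 37 rises and 11 falls. Of the 25 genes called at 21 days alone, 2 were called in both subsets, Lpl and Gstm6, 8 with arrays 1 to 4 only, 13 with arrays 5 to 8 only and 2 in neither. Cyp4a14 had a change of 3.01 in arrays 1 to 4 and 4.06 in arrays 5 to 8, and Acmsd of -1.21 and -1.24. Serpina4-ps1, a serpin pseudogene, had the largest fall of all (-1.89, SE 0.48, limma adjusted p = 0.0438), but it rested on arrays 1 to 4 (-3.00) more than on arrays 5 to 8 (-0.78, adjusted p = 0.508). It lost its call in 15 of the 26 fits that left out 1 array, among them each without 21-day array 1, 2, 3 or 4. Calls with an adjusted p near the threshold were less settled: Eci1 lost its call in 19 of these fits, Elovl2 in 18, Apom in 16, Gnmt in 15, Gstm2 in 14, Hadhb in 12 and Gstm3 in 9. Obp2a, an odorant-binding lipocalin, had -0.99 and -1.14 in the same subsets.

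**Figure D5:**
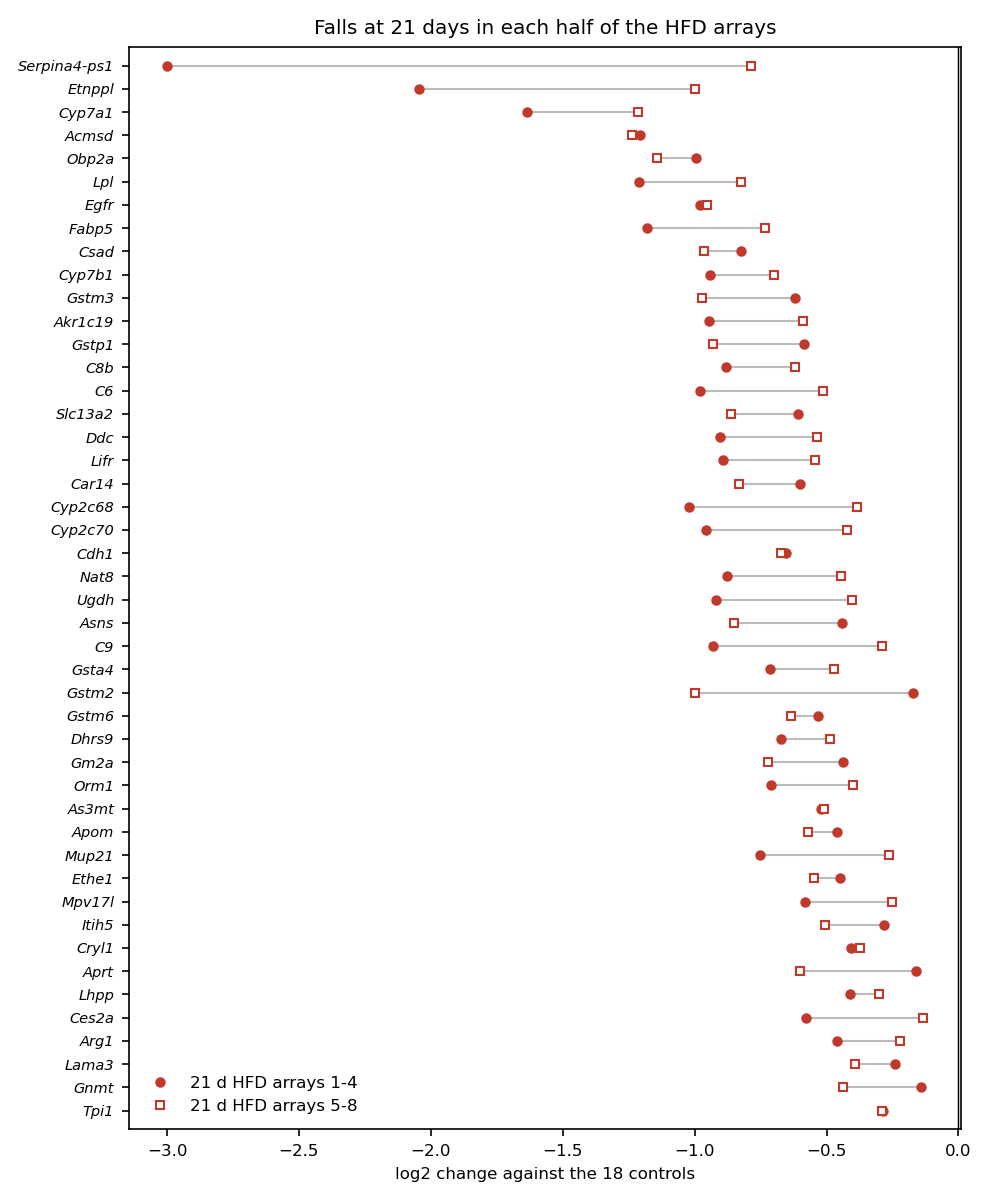
Log2 change against the 18 controls for the 46 genes that fell at 21 days, computed with 21-day arrays 1 to 4 (filled circles) and with arrays 5 to 8 (open squares), 1 gene per line and a grey line between them. All points are below 0, which the choice of these genes by the same 8 arrays favours. The subsets are farthest apart for Serpina4-ps1, at -3.00 and -0.78.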

How the data were processed

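The deposited values are log2 signals per probe set, made by the authors with RMA in Affymetrix Expression Console 1.1, per the submitters' processing notes, and were used without further scaling. Of 32624 probe sets, 19559 name 1 gene in the platform annotation, 1469 name several and 11596 none. 1 probe set with values on 9 arrays was left out, and the brightest probe set stood for each of 841 genes that had several. limma 3.58.1 (R 4.3.3) fitted all 42 arrays in 4 groups, with Benjamini-Hochberg adjustment over 17989 genes. The fit was tested on simulated data in which genes varied independently. That test held no differences between arrays of a group such as those at 21 days, and does not cover them. No 2 of the 26 arrays compared were duplicates (smallest SD of their difference 0.217). The number of arrays limits the precision, with a median SE of 0.09.

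The genes named were the 15 largest called rises and falls, at most 6 rises and 12 falls called at 21 days alone, 3 members per list, the genes next to the threshold and a panel of 29 measured liver genes. Other genes named were chosen after their values were seen. The lists and members were chosen with earlier results of these data known. Gene symbols were checked against RefSeq (19474 probe sets matched). Alternatives covered the arrays fitted, scaling, dim genes, array weights, marker covariates, a replicate block and single arrays left out.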

Additional observations from a re-analysis of the deposited data

Results flagged for a closer look

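Among 87 named genes, 7 had 1 of the 8 arrays at 21 days set apart from the others by Dixon's criterion, where 4.3 would be met by chance at 1 in 20. Array 6 was lowest for Apom (7.34), G6pc (8.22) and Gstm3 (6.88) and highest for Cidea (3.21). Array 8 was highest for Acot3 (4.5, with the next array at 3.87) and for Lcn2 (5.08), and array 1 was lowest for Hamp (7.24). Lcn2 was the 1 gene that differed between 21 and 7 days of HFD (change -0.77, limma adjusted p = 0.0284).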

How the results depend on the processing

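The reported counts are 126 genes called at 21 days against controls, 25 called at 21 days and not at 7 or 14 days, and 0 called against the mean of 7 and 14 days. Leaving out 1 array at a time gave 107 to 131, 19 to 29, and 0 to 0. With 21-day arrays 1 to 4 alone the counts were 877, 785 and 1232, and with arrays 5 to 8 alone 388, 271 and 23. With only the arrays 1 to 4 of every HFD time they were 903, 812 and 7, and with arrays 5 to 8 of every HFD time 349, 256 and 0. With the split of HFD arrays into 1 to 4 and 5 to 8 as a block they were 140, 29 and 0. These 3 alternatives were added after seeing the data. So were the fits without 21-day arrays 3 and 6 (131, 23 and 0) and without arrays rich in acinar markers (91, 22 and 0). With the Malat1 level as a covariate the counts were 156, 36 and 0, and 25 of the 36 were falls. With the acinar marker mean as a covariate they were 121, 24 and 0, and 16 of the 24 were falls. Controls 10 to 18 alone gave 71 and 11. Genes called at 21 days alone numbered 12 when the 2 groups were fitted alone and 8 with array weights. The replicate block gave 93 and 12, but no label says that equal numbers pair samples. Same-numbered 21-day and control arrays had correlations of deviations from -0.41 to 0.18, and 0 of 8 correlated best with their own number. These values cannot show whether equal numbers shared a batch. The cause of these moves was not tested. Of the named genes, 70 were called and 0 of these turned sign in any alternative, while 11 of the 17 that were not called did. RMA signals near background, under about 2.86, limit the size of folds for dim genes.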
